A study of Mus musculus with 10 samples.

Results

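The gene family described here has 8 members, namely Kcnb2, which encodes the pore-forming potassium channel subunit Kv2.2, and the silent subunit genes Kcns1, Kcns2 and Kcns3 (Kv9.1 to Kv9.3), Kcng2, Kcng3 and Kcng4 (Kv6.2 to Kv6.4) and Kcnv1 (Kv8.1). They were picked by gene symbol, with all transcripts of a symbol summed, which gave 8 of 54309 genes and 17 of 140789 transcripts. All 8 passed the filter on low counts and were tested with 20836 genes in total. Other silent subunit genes, such as Kcng1, Kcnv2 and Kcnf1, were not analysed here. The samples were lumbar L4 and L5 dorsal root ganglia (DRG) from the left side of C57BL/6 mice of 6 to 8 weeks, taken 24 h after the left sciatic nerve was transected (axotomy) or only exposed (sham). The labels name no transgene or mutant allele. Sham surgery gave 2 libraries per sex and axotomy 3 per sex, each from the pooled ganglia of 2 mice, so p-values measure the spread between pools. The study asked which early responses to nerve injury differ between females and males.

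Kv2 channels open when a neuron depolarizes and carry a delayed rectifier potassium current that shapes repetitive firing. Silent subunits of the Kv6, Kv8 and Kv9 families do not form working channels alone. They assemble with pore-forming Kv2 subunits and change the voltage range, the speed and the amount of the current. In DRG these transcripts are found mainly in neurons, and Kcns1 and Kcng4 have been linked to pain in human and rodent studies.

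The estimated counts summed to 55258476 to 90111671 per library, and male axotomy 2 was the deepest. That library stood apart from the other male axotomy libraries, since leaving it out raised the number of genes whose response differed between the sexes from 4 to 2177. The male values without it are given with the counts of genes that fell. Marker lists of cell types were also looked up. All 12 pan-neuronal markers reached 0.1 TPM (the deposited measure of level, corrected for transcript length and library size) in at least 1 library. All 10 markers of large myelinated sensory neurons and all 10 of nociceptors did so too. So did all 5 skeletal muscle markers and all 6 macrophage markers, so this threshold does not identify the tissue. Of 6 markers of central glia and interneurons only 1, Olig2, was under 0.1 TPM in every library. That list summed to 1.68 to 2.70 TPM in sham libraries and 4.42 to 6.76 TPM in axotomy libraries.

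In sham ganglia Kcns3 and Kcns1 were the most abundant of the 8 transcripts by TPM and Kcns2 the least. Over the 4 sham libraries the mean level was 43.9 TPM ± 0.893 (SD) for Kcns3, 39.1 ± 4.76 for Kcns1, 33.0 ± 4.48 for Kcnb2, 25.4 ± 1.02 for Kcnv1, 9.75 ± 0.797 for Kcng4, 7.94 ± 2.92 for Kcng2, 6.60 ± 1.56 for Kcng3 and 1.92 ± 0.143 for Kcns2. Neighbours in that order whose sham ranges overlapped were Kcns3 and Kcns1, Kcns1 and Kcnb2, Kcng4 and Kcng2, and Kcng2 and Kcng3, so their order does not hold beyond the spread. Kcnb2, Kcnv1, Kcng4, Kcng3 and Kcns2 otherwise stepped down without overlap. Kcns3 ranked above 79.5% of 18818 protein-coding genes in sham libraries and Kcns2 above 32.2%. The order depended on correcting for length. By CPM, which scales counts to library size but not to length, Kcnb2 came first with a mean of 198.8 CPM, because its main transcript is 14845 nt long, and Kcng2 came last with 4.597 CPM. After axotomy Kcns3, Kcns1, Kcnb2 and Kcnv1 were still the first 4 by mean TPM, at 27.7, 18.1, 17.9 and 16.4 TPM.

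**Figure D1:**
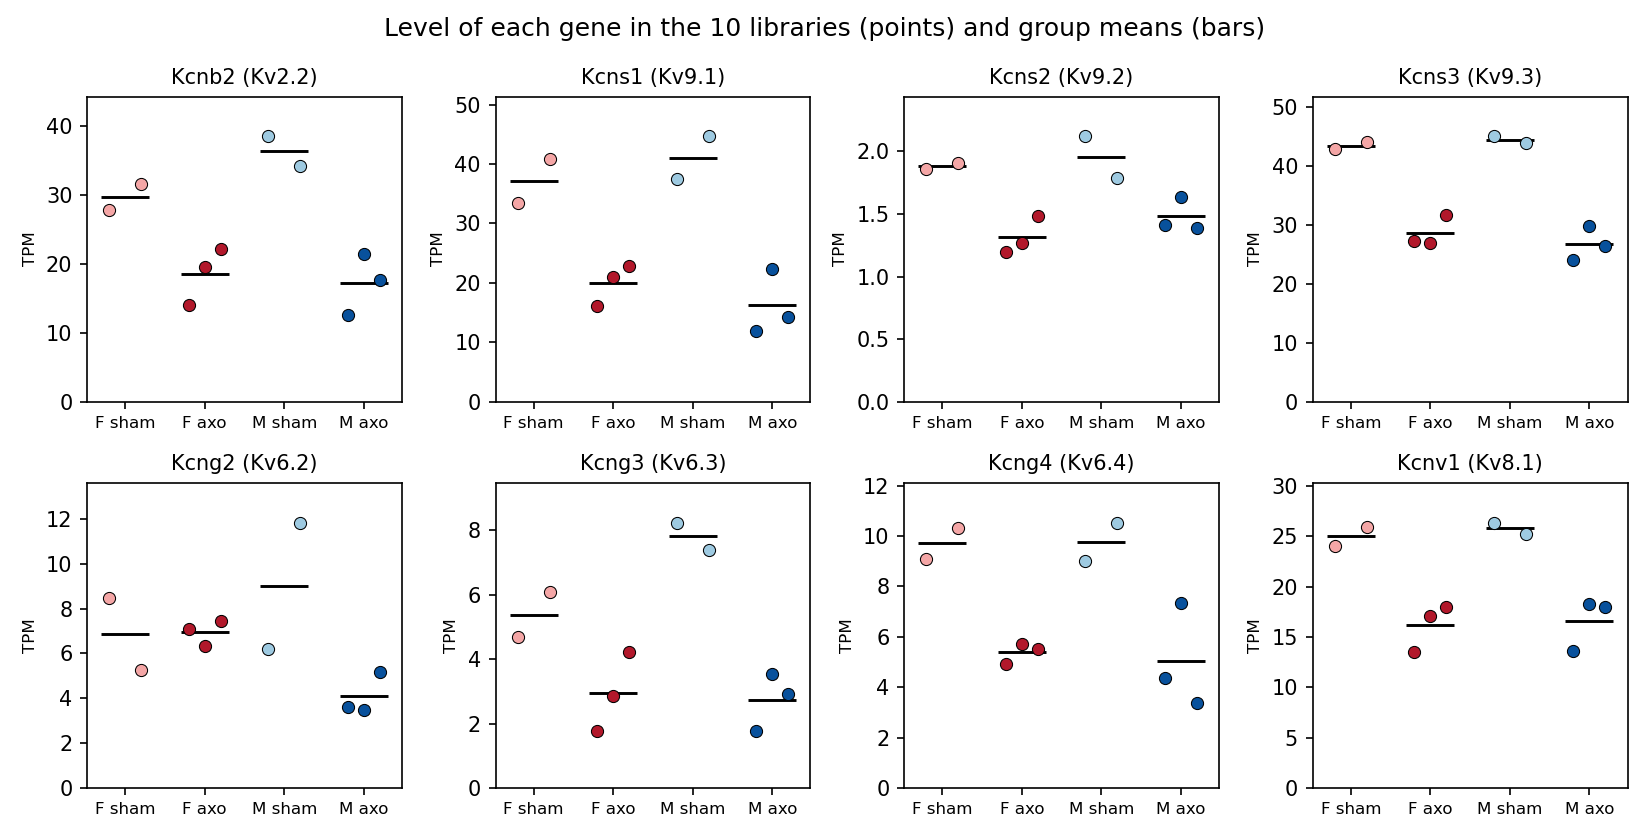
Level in TPM (vertical axes, starting at 0) of each of the 8 genes in the 10 libraries, by sex (F, females; M, males) and operation (axo, axotomy). Points are libraries and bars are group means; the 6 axotomy libraries lie below the 4 sham libraries for every gene except Kcng2.

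Most of the 8 genes were lower 24 h after axotomy averaged over the sexes, and none was higher. In females 6 of the 8 genes fell at an adjusted p under 0.1, where 9.74% of all 20836 genes fell, and in males 7 of the 8 fell, where 20.1% of all genes fell. Averaged over the sexes 7 of the 8 fell, against 22.6% of all genes. Kcnb2, Kcns1, Kcns3, Kcng4 and Kcnv1 fell in both sexes. The female count was 3 without female sham 1, 1 without female sham 2, 3 without female axotomy 1 and 2 with no filter on low counts, with a negative log2FC for each of the 6 genes in all these fits. The share of all genes called in either direction in those fits was 6.87%, 3.98%, 9.67% and 10.3%, against 20.1% in the fit of all libraries. The median log2 fold change (log2FC) of the 8 genes was −0.54 in females and −0.84 in males, and the median over all genes was 0.00 and 0.03. Without male axotomy 2 the male log2FC was −1.01 for Kcnb2, −1.40 for Kcns1, −0.23 for Kcns2, −0.57 for Kcns3, −0.77 for Kcng2, −1.49 for Kcng3, −1.09 for Kcng4 and −0.46 for Kcnv1, and the same 7 genes were called. That fit called 48% of all genes in males in either direction, against 41.9% in the fit of all libraries. By TPM, all axotomy libraries of a sex lay below its sham libraries for 7 of the 8 genes in females and 8 in males, which was also so for 37.3% and 41.5% of all genes. The same separation over all 10 libraries held for 7 of the 8 genes and for 23.6% of all genes. The 8 levels summed to 152 to 180 TPM in sham libraries and 73.3 to 113 TPM in axotomy libraries. In bulk ganglia, fewer neurons of a kind and less RNA per neuron cannot be told apart.

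**Figure D2:**
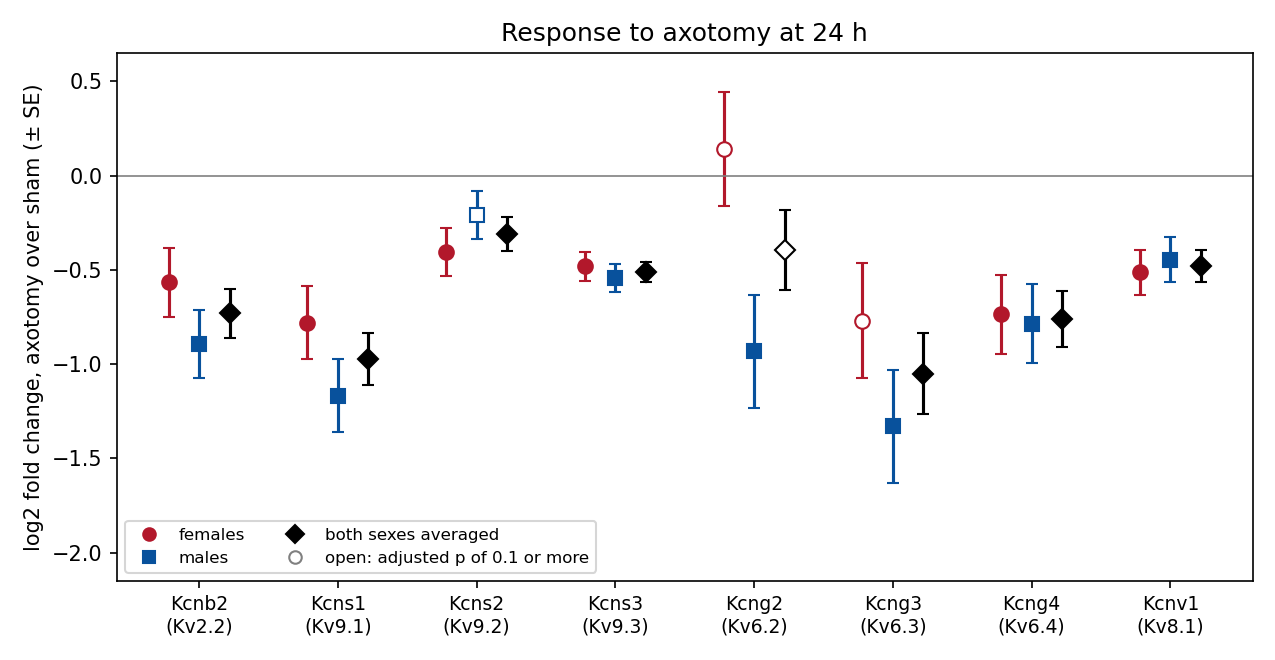
Log2 fold change of axotomy over sham (vertical axis) with its standard error for each of the 8 genes in females, males and averaged over the sexes, from edgeR. Filled symbols have an adjusted p under 0.1; all filled symbols lie below 0, and the open ones are Kcng2 in females and averaged, Kcng3 in females and Kcns2 in males.

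Among the genes called on average, Kcns1 and Kcng3 had the largest average decreases and Kcns2 the smallest. The promoters of Kcns1 and Kcng3 are shown for that reason, and that of Kcng4 because it was the member window with no GC box. No window was at hand for Kcns2. Promoter windows (250 bases before to 50 after a start site, RefSeq, GRCm38.p6, minus strand for all 3) were at hand for 4 of the 8 genes, in 5 windows, of which Kcns3 had 2. GC boxes (GGGCGG on either strand) and the CCAAT box (CCAAT on either strand) are in capitals.
Kcns1 (chr2:164171064-164171363): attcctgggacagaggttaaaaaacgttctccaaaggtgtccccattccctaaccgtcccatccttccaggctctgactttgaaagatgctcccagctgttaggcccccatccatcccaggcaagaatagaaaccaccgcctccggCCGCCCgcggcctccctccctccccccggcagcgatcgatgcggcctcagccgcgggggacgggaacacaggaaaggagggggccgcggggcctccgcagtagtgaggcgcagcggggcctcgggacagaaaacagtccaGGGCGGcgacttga
Kcng3 (chr17:83631846-83632145): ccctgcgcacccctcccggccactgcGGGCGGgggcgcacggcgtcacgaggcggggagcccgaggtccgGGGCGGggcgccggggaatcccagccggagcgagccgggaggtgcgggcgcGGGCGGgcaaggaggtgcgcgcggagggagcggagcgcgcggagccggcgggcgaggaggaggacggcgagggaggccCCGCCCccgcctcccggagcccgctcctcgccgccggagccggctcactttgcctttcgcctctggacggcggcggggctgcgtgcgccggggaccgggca
Kcng4 (chr8:119635631-119635930): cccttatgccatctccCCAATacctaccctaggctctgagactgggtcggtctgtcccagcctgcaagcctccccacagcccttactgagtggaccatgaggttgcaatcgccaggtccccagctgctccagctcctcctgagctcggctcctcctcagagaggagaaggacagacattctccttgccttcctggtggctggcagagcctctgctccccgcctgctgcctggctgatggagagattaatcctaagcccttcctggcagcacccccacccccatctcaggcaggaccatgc
The Kcng3 window was 82.0% G and C, above 99.5% of 32851 promoter windows, and held 4 GC boxes. The Kcns1 window was 64.0% G and C with 2 GC boxes, and the Kcng4 window 61.3% with no GC box and 1 CCAAT box. The Kcns3 windows, not printed, were 47.0% and 74.0% G and C with 1 and 3 GC boxes. GC boxes occurred in 4 of the 5 windows and in 35.7% of all windows, and CCAAT in 1 of 5 and in 37.4% of all. No member window held the letters of an AP-1 site (TGANTCA, in 7.81% of all windows), of a cAMP response element (TGACGTCA, 1.79%) or of a TATA box (TATAAA, 13.6%), each searched on both strands. These are counts of letters in these windows and not sites.

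Kcnb2, the pore-forming member, was lower after axotomy in both sexes. Its level was 27.8 and 31.6 TPM in the female sham and 38.5 and 34.1 TPM in the male sham libraries. It was 14.0, 19.6 and 22.2 TPM in female axotomy and 12.6, 21.4 and 17.7 TPM in male axotomy libraries. No axotomy library reached a sham library. The log2FC was −0.57 ± 0.18 (SE) in females (adjusted p = 0.0694, edgeR) and −0.89 ± 0.18 in males (adjusted p = 0.00517), which left 67.5% and 53.8% of the sham level. The female call was lost, with an adjusted p of 0.102 to 0.345, when either female sham, either male sham, female axotomy 1 or female axotomy 2 was left out. It was also lost with no filter on low counts (adjusted p = 0.255). The transcript of 14845 nt held 90.1% to 94.5% of the gene's TPM in every library, and one of 3963 nt the rest.

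The 7 silent subunit genes together had 3.49 to 4.47 TPM per TPM of Kcnb2 in sham libraries and 4.04 to 5.14 in axotomy libraries. The ranges overlapped, with the highest ratios in female axotomy 1 and male axotomy 1, and this ratio was not tested.

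**Figure D3:**
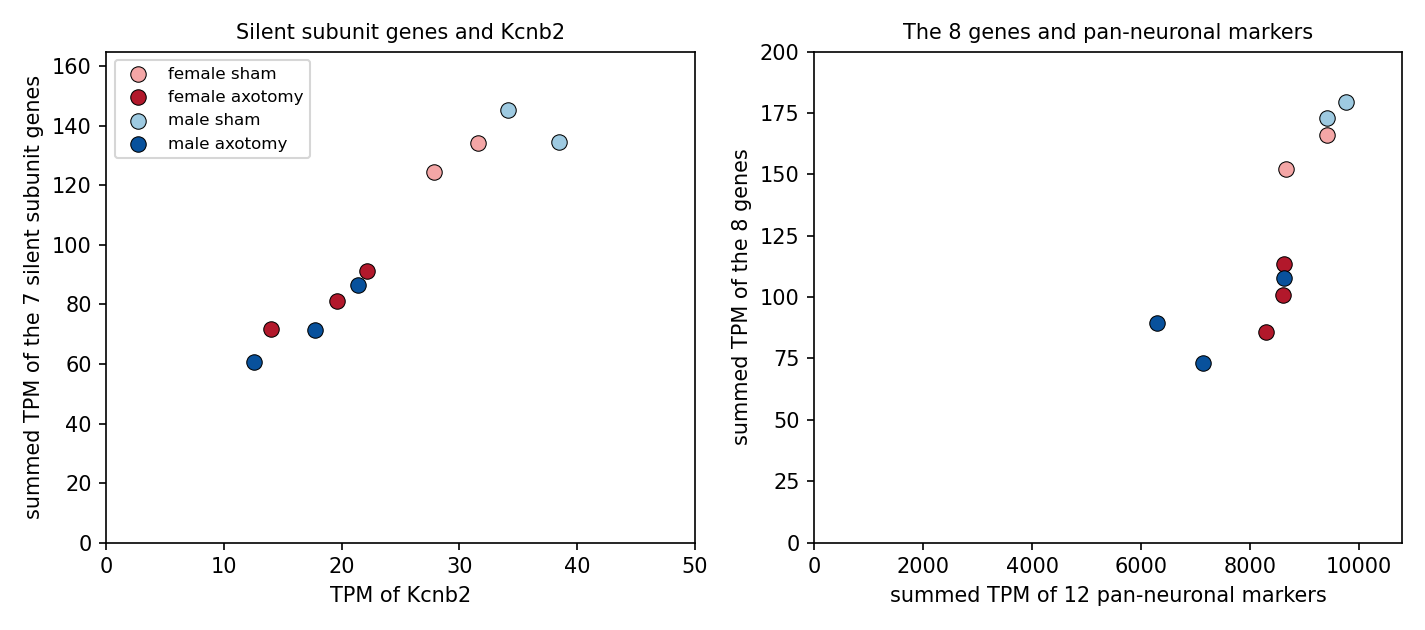
Left, summed TPM of the 7 silent subunit genes (vertical axis) against the TPM of Kcnb2 in each library. Right, summed TPM of the 8 genes (152 to 180 in sham, 73.3 to 113 after axotomy) against summed TPM of 12 pan-neuronal markers; points are libraries coloured by group.

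Kcns1 (Kv9.1) had the largest decrease of the Kv9 genes. Sham levels were 33.5 and 40.8 TPM in females and 37.5 and 44.7 TPM in males. After axotomy they were 16.1, 21.0 and 22.8 TPM in females and 12.0, 22.4 and 14.3 TPM in males. The lowest sham library was well above the highest axotomy library. The log2FC was −0.78 ± 0.19 in females (adjusted p = 0.0279) and −1.17 ± 0.19 in males (adjusted p = 0.00217), or 58.2% and 44.5% of sham. Without female sham 2 the female value was −0.64 and was not called (adjusted p = 0.224). The female call was also lost with no filter on low counts (adjusted p = 0.13). The gene has 1 transcript in the annotation used.

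Kcns3 (Kv9.3) changed less than Kcns1 but with the smallest error of the 8 genes. Its level was 42.8 and 44.0 TPM in female sham and 45.0 and 43.9 TPM in male sham libraries. It was 27.3, 26.97 and 31.7 TPM in female axotomy and 23.9, 29.8 and 26.4 TPM in male axotomy libraries. The sham libraries lay close together, well above all axotomy libraries. The log2FC was −0.48 ± 0.08 in females (adjusted p = 0.00352) and −0.54 ± 0.07 in males (adjusted p = 0.00103). Kcns3 was the only member called in both sexes under every setting tried, leave-one-out fits included. The transcript of 2314 nt held 63.9% to 85.4% of its TPM.

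Kcns2 (Kv9.2) had the lowest level of the 8 genes by TPM, and 196 to 394 estimated counts per library. Sham levels were 1.86 and 1.91 TPM in females and 2.12 and 1.79 TPM in males. After axotomy they were 1.19, 1.26 and 1.48 TPM in females and 1.41, 1.64 and 1.39 TPM in males. The groups did not overlap, but the male gap was narrow. The log2FC was −0.41 ± 0.13 in females (adjusted p = 0.0614) and −0.21 ± 0.13 in males (adjusted p = 0.229), and −0.31 ± 0.09 averaged over the sexes (adjusted p = 0.0196). The female call was lost without female sham 1, female sham 2, female axotomy 1 or female axotomy 2 (adjusted p = 0.157 to 0.277), and the averaged call without male sham 1 (log2FC −0.25, adjusted p = 0.107). With no filter on low counts the female call was lost as well (adjusted p = 0.156). Its level was split between transcripts of 5456 and 4906 nt in shares of TPM that varied from 25.04% to 100.0% for the 5456-nt one.

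Kcng3 (Kv6.3) had the largest decrease in males. Sham levels were 4.68 and 6.09 TPM in females and 8.25 and 7.40 TPM in males. After axotomy they were 1.75, 2.84 and 4.22 TPM in females and 1.77, 3.54 and 2.91 TPM in males. In females the highest axotomy library came close to the lowest sham library, and in males the gap was wide. The log2FC was −1.33 ± 0.30 in males (adjusted p = 0.00781), or 39.8% of sham, and −0.77 ± 0.30 in females, which was not called (adjusted p = 0.123). In females it passed without female axotomy 3 (log2FC −1.09, adjusted p = 0.0361), without male axotomy 1 (adjusted p = 0.0804) and by DESeq2 (adjusted p = 0.0510). Averaged over the sexes the log2FC was −1.05 ± 0.21 (adjusted p = 0.00334).

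Kcng4 (Kv6.4) fell by a like amount in both sexes. Its level was 9.104 and 10.3 TPM in female sham and 9.02 and 10.5 TPM in male sham libraries. It was 4.93, 5.70 and 5.50 TPM in female axotomy and 4.36, 7.33 and 3.38 TPM in male axotomy libraries. The 3 male libraries were spread more widely than the 3 female ones, with male axotomy 2 the highest. The log2FC was −0.74 ± 0.21 in females (adjusted p = 0.0457) and −0.79 ± 0.21 in males (adjusted p = 0.0161), and the male value was −1.09 without male axotomy 2. The female call was lost without female sham 1, female sham 2 or female axotomy 1 (adjusted p = 0.128 to 0.266), and the male call without male sham 2 (log2FC −0.67, adjusted p = 0.130). The female call was also lost with no filter on low counts (adjusted p = 0.154). The 1875-nt transcript of Kcng4 had 0 counts in all libraries, so the 3806-nt transcript held all reads.

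Kcng2 (Kv6.2) was the member without an average decrease that passed the test. Its level was 8.46 and 5.26 TPM in female sham and 6.21 and 11.8 TPM in male sham libraries. It was 7.09, 6.34 and 7.47 TPM in female axotomy and 3.62, 3.47 and 5.19 TPM in male axotomy libraries. The female groups overlapped and the male groups did not. The log2FC was 0.14 ± 0.30 in females (adjusted p = 0.802), −0.93 ± 0.30 in males (adjusted p = 0.0355) and −0.40 ± 0.21 averaged (adjusted p = 0.167). The male value was −0.41 (adjusted p = 0.412) without male sham 2, and the averaged value was called without male sham 1 (log2FC −0.60, adjusted p = 0.0494) and without male axotomy 3 (log2FC −0.52, adjusted p = 0.0794).

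The TPM of Kcng2 depended in part on few reads of a short transcript. The transcript of 279 nt had 2.00 to 22.6 estimated counts per library but 11.7% to 58.1% of the gene's TPM, the most in male sham 2. The longest one (2813 nt) had 173 to 330 counts. On the longest transcript alone, an alternative chosen after seeing the data, the log2FC was −0.01 in females, −0.48 in males (adjusted p = 0.0455) and −0.25 averaged. Its level was 3.42 to 4.15 TPM in sham and 2.00 to 3.91 TPM in axotomy libraries, which overlapped. Exon overlap was looked up in an earlier Gencode release than the one used for the counts. There Kcng2 was the only member whose exons overlapped another gene, D330025C20Rik on the opposite strand, which averaged 0.0542 TPM.

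**Figure D4:**
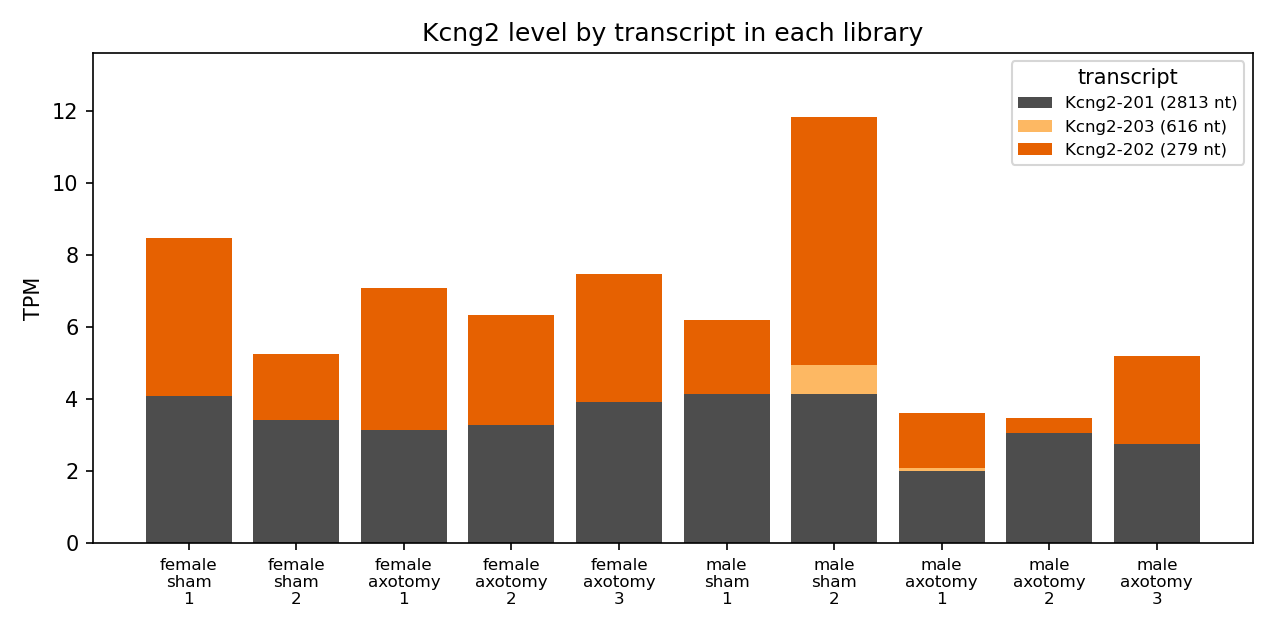
TPM of the 3 Kcng2 transcripts (stacked bars) in each of the 10 libraries, with transcript lengths in the key. The 279-nt transcript makes up 11.7% to 58.1% of the bar, and the tallest bar is male sham 2, at 11.8 TPM.

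Kcnv1 (Kv8.1), which lowers Kv2 currents when both are expressed in cultured cells, fell in both sexes. Its level was 24.1 and 25.97 TPM in female sham and 26.4 and 25.3 TPM in male sham libraries. It was 13.5, 17.1 and 17.96 TPM in female axotomy and 13.6, 18.3 and 18.01 TPM in male axotomy libraries. The sham libraries lay close together and above all axotomy libraries. The log2FC was −0.51 ± 0.12 in females (adjusted p = 0.0216) and −0.45 ± 0.12 in males (adjusted p = 0.0171), or 70.0% and 73.4% of sham. The female call was lost without female sham 2 (log2FC −0.47, adjusted p = 0.184) and the male call without male sham 1 (log2FC −0.42, adjusted p = 0.107). The coding transcript of 4389 nt held 87.7% to 93.5% of its TPM, and the rest went to a transcript with a retained intron.

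None of the 8 genes differed between the sexes at an adjusted p under 0.1. The response differed for 0 of 8 genes, where 0.0192% of all genes passed. Kcng2 alone had an unadjusted p under 0.05 (log2FC in males minus females −1.07 ± 0.43, adjusted p = 0.388 by edgeR), and DESeq2 also called 0 of 8. The other 7 differences ran from −0.56 ± 0.43 for Kcng3 to 0.20 ± 0.18 for Kcns2, so differences of this size cannot be told from none with these errors. In sham, 0 of 8 differed (0.0432% of all genes) and 0 had an unadjusted p under 0.05. After axotomy, 0 of 8 differed (1.52% of all genes) by edgeR and by DESeq2, and only Kcng2 had an unadjusted p under 0.05 (log2FC −0.70 ± 0.27, adjusted p = 0.265). Without male axotomy 2, Kcns1 (log2FC −0.48 ± 0.14, adjusted p = 0.0648) and Kcng4 (log2FC −0.35 ± 0.12, adjusted p = 0.0991) were lower in male than in female axotomy libraries, in a fit that called 17.3% of all genes, so 2 of 8 is near the background.

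Within the axotomy groups most of the 8 genes ranked the libraries alike. Female axotomy 1 had the lowest TPM of its group for 6 of the 8 genes and female axotomy 3 the highest for 7. In males, male axotomy 1 was lowest for 5 and male axotomy 2 highest for 7. The share of all genes with these ranks was not counted. TPM carry no correction between libraries beyond library size, so the ranks may not be particular to the 8 genes. The summed level of 12 pan-neuronal markers was 8295, 8599 and 8620 TPM in female axotomy 1, 2 and 3, with female axotomy 2 and 3 nearly equal. It was 7137, 8620 and 6289 TPM in male axotomy 1, 2 and 3, so male axotomy 3 was the lowest there. Over the 10 libraries Kcnb2 and Kcng3 were most alike (r = 0.99 of log2 levels) and Kcng2 and Kcns2 least (r = 0.17), which includes the shared effect of the operation.

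Neuronal marker levels moved with the operation too. The summed pan-neuronal level was 8654 to 9412 TPM in female sham, 9422 to 9759 TPM in male sham, 8295 to 8620 TPM in female axotomy and 6289 to 8620 TPM in male axotomy libraries. Of the 12 markers, 2 fell and 1 rose in females, and 6 fell and 0 rose in males. Of 10 markers of large myelinated sensory neurons 5 fell in females, and 7 fell and 1 rose in males, and their summed level went from 2778 to 3550 TPM in sham to 1583 to 2311 TPM after axotomy. Of 10 nociceptor markers 5 fell in females, and 5 fell and 1 rose in males, with a summed level of 4636 to 4816 TPM in sham and 4255 to 4589 TPM after axotomy. The median log2FC was −0.45 in females and −0.79 in males for the large myelinated list and −0.16 and −0.30 for the nociceptor list, beside −0.54 and −0.84 for the 8 genes.

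Non-neuronal lists are given by sex. No marker of the macrophage, Schwann cell, fibroblast or endothelial lists passed the test of a difference in response between the sexes. Of the 5 satellite glia markers 1 passed it, with the higher log2FC in males, where 4 of all 20836 genes passed. All 6 macrophage markers rose in males (1 in females), from 18.04 to 20.3 TPM summed in male sham to 37.2 to 56.1 TPM. All 5 myelinating Schwann cell markers (0 in females) and all 5 fibroblast markers rose in males, while 2 fibroblast markers fell in females. Of 5 satellite glia markers 3 rose in males, and 2 fell and 1 rose in females. Of 4 endothelial markers 2 fell in males and 0 changed in females. No skeletal muscle marker of 5 was called, although their sum reached 110 TPM in 1 female axotomy library against 1.55 to 26.6 TPM in sham. Of 5 tested markers of central glia and interneurons 3 rose in females, and 1 rose and 1 fell in males, at sums of 6.76 TPM or less.

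Scaled to the summed counts of the 12 pan-neuronal markers instead, the decreases in males were smaller. That scaling moved the median log2FC of all genes to 0.24 in males and left it at 0.00 in females. In males 5 of the 8 genes were then called, with Kcns1 at −0.97 and Kcng3 at −1.12, while Kcng2 (log2FC −0.69, adjusted p = 0.131) and Kcnv1 (log2FC −0.22, adjusted p = 0.284) were not. In females 5 of the 8 were called, and Kcns2 lost its call there (log2FC −0.41, adjusted p = 0.146) and on average (log2FC −0.20, adjusted p = 0.182). The share of all genes called in either direction with that scaling was 43.1% in males and 13.6% in females. Without it the shares were 41.9% and 20.1%. The part of the neuronal and non-neuronal markers in the decreases was otherwise not tested.

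**Figure D5:**
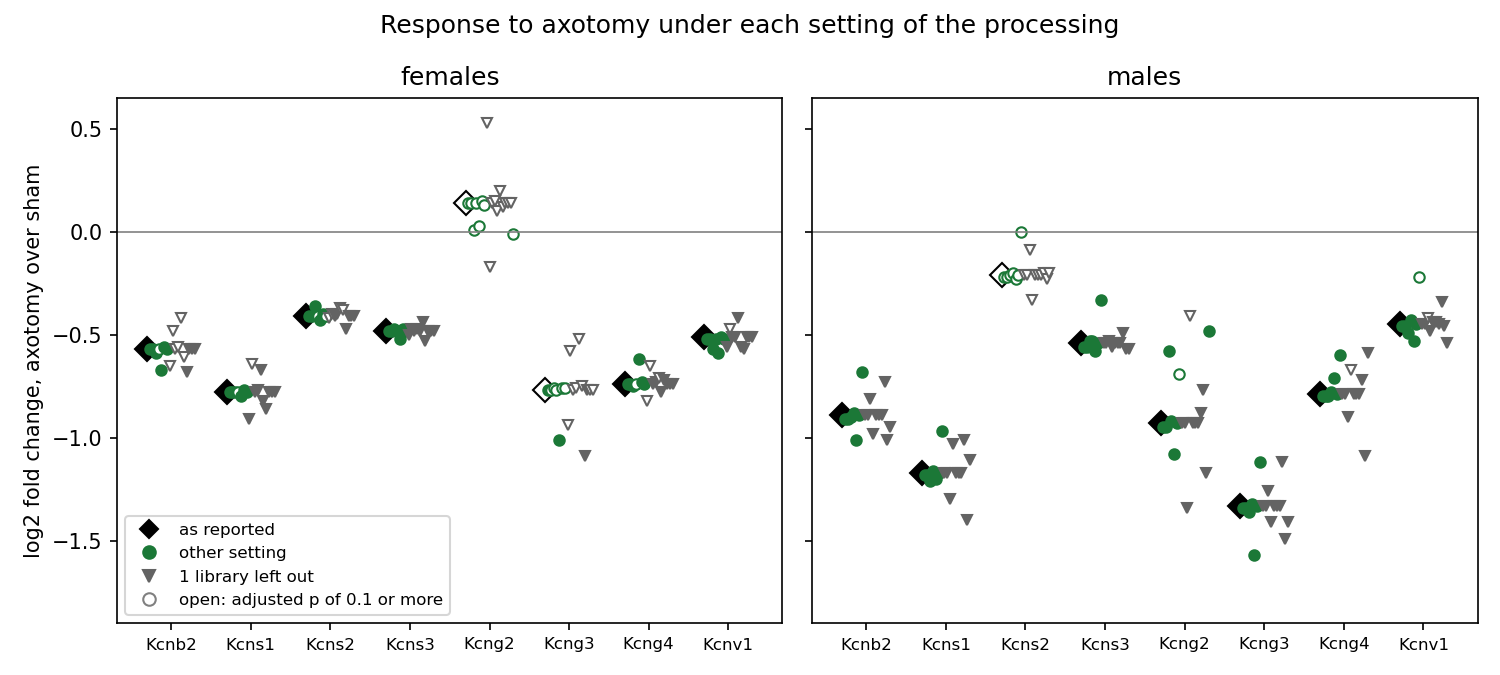
Log2 fold change of axotomy over sham (vertical axis) of the 8 genes in females and in males under each setting of the processing. Diamonds are the values reported, circles other settings and triangles fits with 1 library left out; filled symbols have an adjusted p under 0.1, and every Kcns3 symbol is filled.

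Genes for proteins that bind, anchor or modify Kv2 channels changed in both directions. Of 24 listed partner genes, 22 were tested, and 6 fell and 5 rose in females and 10 fell and 5 rose in males. Over all genes 9.74% fell and 10.4% rose in females, and 20.1% fell and 21.8% rose in males. The median log2FC was 0.01 in females and −0.15 in males, beside 0.00 and 0.03 over all genes. Amigo1, an auxiliary subunit of Kv2 channels, fell from 72.4 to 84.9 TPM over the sham libraries to 41.6 to 61.2 TPM over the axotomy libraries (log2FC −0.35 ± 0.10, adjusted p = 0.0485 in females; −0.64 ± 0.10, adjusted p = 0.00167 in males). Pitpnm2, a lipid transfer protein at contacts of the endoplasmic reticulum with the cell membrane, fell from 71.0 to 84.0 TPM to 25.9 to 49.8 TPM (log2FC −0.87 ± 0.11 averaged, adjusted p = 0.000253). Cdk5r1, the activator of the kinase Cdk5, fell from 20.7 to 24.3 TPM to 8.39 to 14.8 TPM (log2FC −0.79 ± 0.07 averaged, adjusted p = 4.06e-05). Its log2FC was −0.53 ± 0.10 in females and −1.05 ± 0.10 in males, a difference that was not called (−0.52 ± 0.14, adjusted p = 0.250). After axotomy Cdk5r1 was lower in males than in females (log2FC −0.41 ± 0.09, adjusted p = 0.0843), where 1.52% of all genes were called. Kcne3, an accessory subunit of several potassium channels, rose in males (log2FC 1.46 ± 0.36, adjusted p = 0.0106) at a low level of 0.918 to 1.01 TPM in male sham and 1.71 to 3.38 TPM in male axotomy libraries. In females its log2FC was 0.54 ± 0.34 (adjusted p = 0.328).

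The genes whose levels followed the most abundant members most closely are given as a description. Over the 10 libraries and 13658 protein-coding genes with a mean of at least 1 TPM, Prickle2 (r = 0.996), Zfp91 (r = 0.995) and Hip1 (r = 0.994) were most like Kcns3 by the correlation of log2(TPM + 0.1). For Kcns1 they were Kcnc1 (r = 0.997), which encodes the potassium channel Kv3.1, 5730409E04Rik (r = 0.997) and Pls1 (r = 0.997). Kcnc1 went from 20.1 to 28.2 TPM in sham to 7.84 to 15.1 TPM after axotomy, and Prickle2 from 14.7 to 15.8 TPM to 7.26 to 10.3 TPM. All these points share the operation, the library and its depth.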

How the data were processed

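DRG RNA was sequenced in 10 libraries as poly-A, stranded, paired reads. The authors trimmed reads with Trimmomatic 0.39 and assigned them with Salmon 1.3.0 to Gencode M27 transcripts (GRCm39), with a strand setting not given in the sources used here. Their deposited files hold estimated counts per transcript, which are not normalized, effective lengths (another unit, in bases), and TPM, which the authors' Salmon run computed from both. The 8 members and all lists were chosen with earlier results of these data known.

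Estimated counts were summed per gene, rounded and tested in R 4.3.3 with edgeR 4.0.16 (quasi-likelihood F test, TMM, average effective length as offset). The filterByExpr filter with a minimum count of 10 kept 20836 genes. A single model with 4 group means held all 10 libraries. Adjustment followed Benjamini and Hochberg over the 20836 genes, with calls at an adjusted p under 0.1, the study's threshold. SEs were derived from F values. TPM were summed per gene and not tested. They are scaled to the same total in every library but, unlike the log2FC, carry no further correction between libraries. The fit was tested on simulated data. Named were all members, the 4 called partners with the largest averaged change, Amigo1 among them, after leaving out 1 partner that is not reported here, and the 3 genes most correlated with each of the 2 most abundant members; of marker lists only counts and sums, apart from Olig2. D330025C20Rik was named after its value was seen.

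Depth was 55258476 to 90111671 estimated counts, so that 3 counts are 0.0333 to 0.0543 CPM (counting error only). The common biological coefficient of variation was 0.129. Same-numbered libraries did not pair (residual r from −0.09 to 0.13 over 13 pairs, 2 above 0.1). Alternatives were DESeq2 1.42.0, RLE size factors, no length offset, no filter, a replicate block, each sex alone, pan-neuronal scaling, each library left out, CPM in place of TPM for the order, a pseudocount of 1 in place of 0.1 for the correlations, and, chosen after seeing the data, Kcng2 from its longest transcript. Promoter sequences are from RefSeq (GRCm38.p6), and coordinates were not converted between builds. No protein sequences were used here.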

Additional observations from a re-analysis of the deposited data

How the results depend on the processing

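The 7 genes called on average kept a negative log2FC in both sexes under every alternative run, except Kcns2 in males at 0.00 with pan-neuronal scaling. In females the number of members called was 6 as reported, 2 with no filter on low counts (Kcns3 and Kcnv1) and 7 with a replicate block or DESeq2, and 1 to 7 with 1 library left out. In males it was 5 to 7 with 1 library left out and 7 with the replicate block, and averaged over the sexes 7 to 8, or 6 with pan-neuronal scaling. The share of all genes called in females, in either direction, was 20.1% as reported, 10.3% with no filter, 23.9% with the block and 22.9% with DESeq2. In males the share was 41.9% as reported and 41.8% with the block. Averaged over the sexes it was 46.5% as reported, 43.5% with pan-neuronal scaling and 47.1% without male axotomy 3, which called 8 members. The replicate block called Kcng3 in females (log2FC −1.01, adjusted p = 0.0177) and changed no other member's call. Members whose response differed between the sexes numbered 0 under every alternative, and members that differed after axotomy 0 to 2 with 1 library left out. Values that changed sign were all uncalled. In females, Kcng2 went from 0.14 to −0.01 on its longest transcript and ran from −0.17 to 0.53 with 1 library left out. In the difference between the sexes, pan-neuronal scaling gave Kcns3 0.16 and Kcng4 0.14, and leaving out 1 library gave Kcng4 −0.35 to 0.14 and Kcnv1 −0.03 to 0.17. Over all genes, the number whose response differed between the sexes was 4 as reported, 536 with DESeq2, 14 with RLE size factors, 7 with no length offset, 186 with no filter, 86 with the replicate block and 0 to 2177 with 1 library left out. After axotomy the number differing between the sexes was 316, against 1208 with DESeq2, 610 with no filter, 620 with the replicate block and 26 to 3585 with 1 library left out; in sham it was 9, against 32 with DESeq2 and 15 with no filter. Genes called numbered 4191 in females and 8732 in males, and 864 to 5599 and 4950 to 9966 with 1 library left out. The cause of these shifts was not tested. By CPM, which is not corrected for length, Kcnb2 ranked 1 and Kcng2 8 in sham in place of 3 and 6.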
